A study of Homo sapiens with 15 samples.

Results

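The genes of cholesterol and fatty acid synthesis were followed in SCC13 cells, a line derived from a human squamous cell carcinoma of the skin, with and without an added TLR4 and with and without LPS. The 36 genes were taken by name from the textbook pathways. The rule used no measured value, but earlier results of these data were known when the genes were chosen. Every probe that is not a control spot and whose accession belongs to these genes was read. The list held 36 of the 20503 genes that the arrays cover and 44 of the 50599 probes. Of the 36 genes, 33 had a probe that was well above background throughout at least 1 group of arrays, and these were tested. SC5D, ABCA1 and ABCG1 did not pass this filter and are described by their range alone.

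SCC13 cells had been stably transfected with the control plasmid (SCC13-pUNO) or with a plasmid for TLR4 fused to GFP (SCC13-TLR4), and held under blasticidine, and the TLR4-GFP cells with a high GFP signal had been sorted. RNA was hybridised to 15 Agilent arrays of a single colour (Cy3): untreated SCC13-pUNO cells (n = 4), SCC13-pUNO cells with 10 µg/ml of ultrapure LPS for 24 h (n = 4), untreated SCC13-TLR4 cells (n = 3) and SCC13-TLR4 cells with the same LPS treatment (n = 4). The lines were routinely grown with fetal bovine serum, itself a source of lipoprotein cholesterol. The paper does not state the medium of the arrayed cells during the LPS treatment. The replicates of a line are cultures of the same transfected cells, so p-values measure the spread between cultures and not between transfections. The comparisons ask whether LPS, the bacterial ligand of TLR4, moved the lipid synthesis genes in either line, and whether the lines differed.

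Cells make cholesterol from acetyl-CoA through mevalonate, squalene and a long series of changes to the sterol ring, and they make fatty acids from the same acetyl-CoA. Both pathways are switched on by the SREBP transcription factors, which SCAP carries out of the endoplasmic reticulum when sterols are scarce and which INSIG proteins hold back when sterols are plentiful. In the epidermis these lipids are made by the keratinocytes themselves and go into the barrier of the outer layers.

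SREBP binds sterol response elements in promoters and acts there with the general factors NF-Y and SP1. The RefSeq promoter table (GRCh38.p14) held 31 of the 36 genes, with 250 bases before and 50 bases after each start, and letters were searched on both strands. The CCAAT box of NF-Y was in the windows of 21 of 31 genes (67.7%) and of 39.7% of the 27305 genes in the table, which also holds noncoding genes. The SP1 box GGGCGG was found for 30 of 31 (96.8%) against 48.3%, the E-box CACGTG for 5 of 31 (16.1%) against 8.78%, and a strict sterol response element, TCACNCCAC, for 1 of 31 (3.23%) against 1.39%. None of these 4 motifs contains another. By role, CCAAT was found for 6 of 7 mevalonate genes, 8 of 9 squalene and sterol ring genes, 4 of 7 fatty acid genes and 2 of 5 genes of SREBP control. A match is only a match of letters. The 250 bases before the start are shown for SREBF2, whose window holds the sterol response element, and for HMGCS1, INSIG1 and STARD4, members whose levels carry the results below, each written 5′ to 3′ along the gene with CCAAT, or its other strand ATTGG, and the sterol response element in capitals.
SREBF2, chr22:41832855-41833104, plus strand: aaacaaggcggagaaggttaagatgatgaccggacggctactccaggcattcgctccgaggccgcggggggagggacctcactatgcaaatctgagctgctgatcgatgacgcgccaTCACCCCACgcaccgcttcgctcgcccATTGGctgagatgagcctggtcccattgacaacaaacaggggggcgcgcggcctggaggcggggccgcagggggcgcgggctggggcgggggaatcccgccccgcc
HMGCS1, chr5:43313413-43313662, minus strand: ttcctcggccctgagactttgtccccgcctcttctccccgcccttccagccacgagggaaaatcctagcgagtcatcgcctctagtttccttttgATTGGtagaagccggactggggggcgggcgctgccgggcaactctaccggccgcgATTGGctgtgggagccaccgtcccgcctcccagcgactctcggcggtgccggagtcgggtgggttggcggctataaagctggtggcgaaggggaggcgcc
INSIG1, chr7:155297628-155297877, plus strand: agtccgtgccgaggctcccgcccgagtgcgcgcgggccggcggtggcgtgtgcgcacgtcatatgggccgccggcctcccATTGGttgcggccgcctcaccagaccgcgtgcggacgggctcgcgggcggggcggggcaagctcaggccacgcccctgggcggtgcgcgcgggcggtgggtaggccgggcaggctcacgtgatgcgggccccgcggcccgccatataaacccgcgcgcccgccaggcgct
STARD4, chr5:111512536-111512785, minus strand: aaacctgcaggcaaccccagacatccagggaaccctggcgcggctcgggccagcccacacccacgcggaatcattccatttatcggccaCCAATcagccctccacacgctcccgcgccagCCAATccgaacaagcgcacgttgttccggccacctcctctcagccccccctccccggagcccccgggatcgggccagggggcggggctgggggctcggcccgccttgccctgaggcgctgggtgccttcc

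Levels are log2 intensities from which the array's own 75th percentile was subtracted. That percentile ranged over arrays from 192 to 420 intensity units, and the share of spots well above background from 47.1% to 56.2%. The arrays lay on 2 slides: slide 1 held 8 arrays (3 of untreated SCC13-pUNO, 1 of untreated SCC13-TLR4 and 2 of each LPS group) and slide 2 held 7. TLR4, the transfected gene, was between 2.84 and 3.19 on the SCC13-TLR4 arrays and between -6.26 and -4.74 on the LPS-treated SCC13-pUNO arrays. It was well above background on 2 of 4 untreated and 0 of 4 LPS-treated SCC13-pUNO arrays. Among the untreated SCC13-pUNO arrays, replicates 1, 3 and 4 were at -3.80, -6.40 and -5.72, but the library labelled replicate 2 was at 3.04 and goes against its label. Each comparison was therefore also computed without it. Of 9 keratinocyte markers, 8 were well above background on all 15 arrays, and 0 of 6 fibroblast, 1 of 4 melanocyte, 2 of 4 leukocyte and 1 of 3 endothelial markers were.

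No lipid synthesis gene passed the test after LPS in either line. In SCC13-pUNO cells 0 of 33 genes were called, against a background of 0% of the 22685 probes tested, and in SCC13-TLR4 cells 0 of 33 against 0% (limma with slide as a factor, Benjamini-Hochberg adjusted p under 0.05). The lowest adjusted p among the genes was 0.999887 in SCC13-pUNO and 0.999714 in SCC13-TLR4 cells. At an unadjusted p under 0.05 there were 3 genes in SCC13-pUNO cells (HMGCS1, FASN and STARD4), where 3.85% of all probes passed, and 1 in SCC13-TLR4 cells (DHCR7), where 2.96% passed. Single arrays set the first of these counts. It was 7 without LPS-treated SCC13-pUNO replicate 2, where 1235 of the 22685 probes passed. It was 0 without untreated SCC13-pUNO replicate 1, where 846 of the 22685 passed. The count in SCC13-TLR4 cells was 0 without untreated SCC13-TLR4 replicate 1, where 447 of 22668 probes passed. Without the library labelled untreated SCC13-pUNO replicate 2 the counts were 2 (3.6% of probes) in SCC13-pUNO and 0 (2.46%) in SCC13-TLR4 cells. Again no gene was called. In a bulk sample, fewer cells of a type and less RNA per cell cannot be told apart.

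The intervals bound what LPS could have done. In SCC13-pUNO cells the 95% interval of 31 of 33 genes lay within 1 log2 unit of 0, as it did for 89.2% of probes, and that of 28 lay within 1.5-fold, as for 71.4%. In SCC13-TLR4 cells these numbers were also 31 (88.5% of probes) and 28 (71.6%). A change of that size was thus outside the interval for most of the genes, and smaller changes are not bounded by it.

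Most of the genes had a small positive fold change with LPS in the control line, none of them called. The fold change was above 0 for 27 of 33 genes (81.8%) in SCC13-pUNO cells, against 54.8% of all probes, with a median log2 fold change of 0.10 against 0.01. In SCC13-TLR4 cells it was above 0 for 20 of 33 (60.6%) against 41.3%, with a median of 0.02 against -0.02. Without the library labelled replicate 2 the counts were 27 (54.6% of probes) and 20 (41.3%). Without the slide factor they were 21 in SCC13-pUNO and 27 in SCC13-TLR4 cells (47.9% and 48.1% of probes), so the order of the lines turned. Without LPS-treated SCC13-pUNO replicate 1 the count in SCC13-pUNO cells was 21 (53.1% of probes), with a median of 0.04. In SCC13-TLR4 cells the count was 14 (39% of probes) without LPS-treated SCC13-TLR4 replicate 1 and 27 (42.2%) without replicate 2 of that group. It was 21 (48.9% of probes) without untreated SCC13-TLR4 replicate 1, the only untreated array of that line on slide 1. Over the 31 genes well above background on all 15 arrays the counts were 27 and 18 (55.3% and 38.2% of probes). Within slides, 27 of 33 genes were higher with LPS on slide 1 and 23 on slide 2 in SCC13-pUNO cells, but 14 on slide 1 and 26 on slide 2 in SCC13-TLR4 cells. The genes moved together from array to array, as given below, so they are not independent counts.

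**Figure D1:**
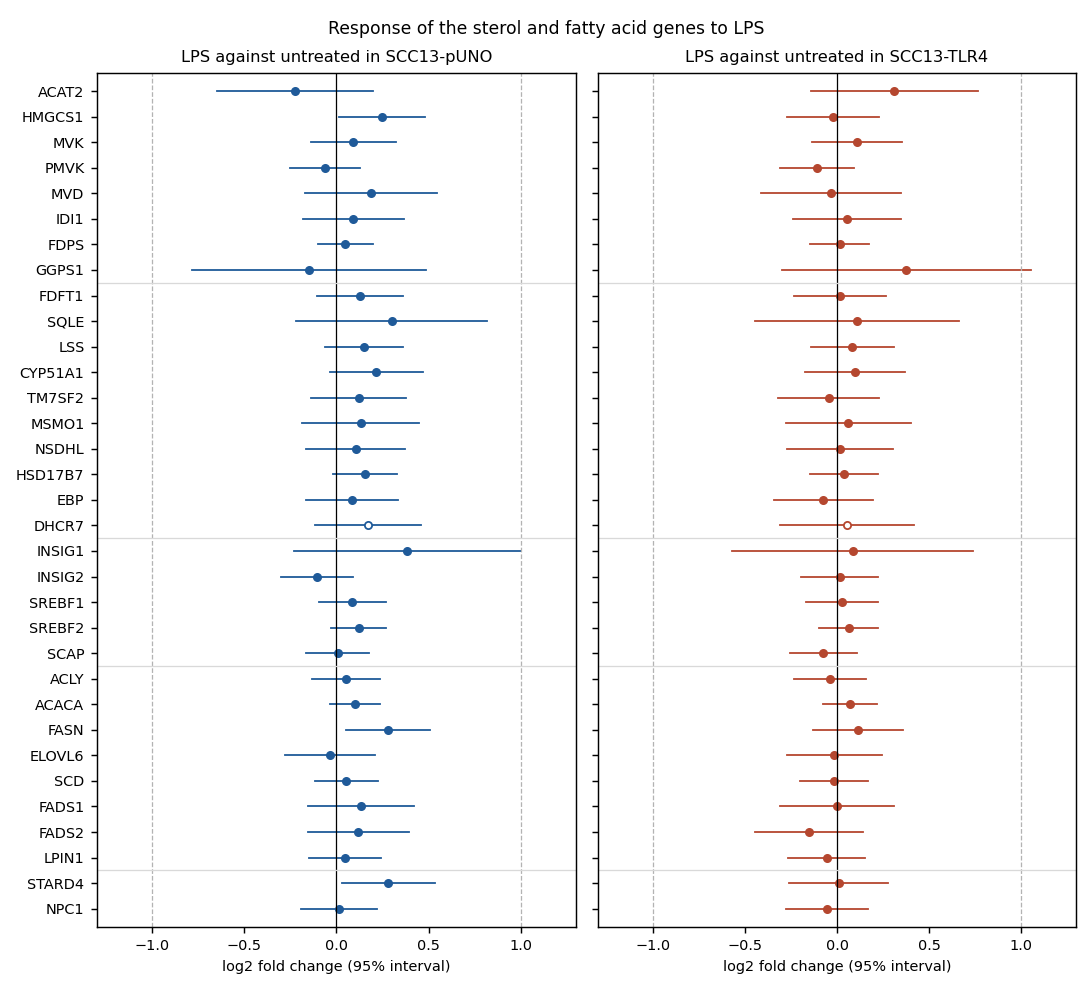
Log2 fold change with LPS of the 33 genes tested in SCC13-pUNO (left) and SCC13-TLR4 cells (right); points are estimates with slide as a factor, lines are 95% intervals, grey lines separate the roles in the order of the text, and dashed lines mark 1 log2 unit. DHCR7 (open points) is drawn without the array untreated SCC13-TLR4 replicate 1; most of the points on the left lie slightly above 0, and 3 of the intervals there miss it.

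The 8 mevalonate and isoprenoid genes run from the thiolase ACAT2 to the prenyl diphosphates made by FDPS and GGPS1. With LPS, 5 of 8 were higher in SCC13-pUNO cells and 5 of 8 in SCC13-TLR4 cells, with medians of 0.07 and 0.03, and 0 were called in each. The count in SCC13-TLR4 cells includes GGPS1, which passed the filter only through the LPS-treated arrays of that line. HMGCS1, the synthase that makes HMG-CoA, was at 0.86, 0.85, 0.71 and 0.61 on the untreated SCC13-pUNO arrays and at 1.20, 0.88, 0.82 and 0.84 with LPS. The high value is replicate 1, and the groups overlapped. In SCC13-TLR4 cells it was at 1.19, 0.77 and 0.78 untreated and at 1.35, 0.88, 0.70 and 0.84 with LPS. The LPS effect on HMGCS1 was 0.25 log2 units in SCC13-pUNO cells (SE 0.11), 0.23 on each slide, and -0.02 in SCC13-TLR4 cells (SE 0.11). For the control line the two-sided exact permutation test within slides gave p = 0.0333, the smallest that its 30 splits allow, but with slide ignored it gave p = 0.200.

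GGPS1, which makes the geranylgeranyl donor for small GTPases, was faint and was well above background on 10 of 15 arrays. It was at -2.98, -4.30, -3.75 and -3.66 in untreated SCC13-pUNO cells and at -3.44, -4.51, -3.98 and -3.53 with LPS. In the TLR4 line it was at -3.83, -4.40 and -4.26 untreated and at -3.45, -3.60, -3.91 and -4.07 with LPS. The arrays of all groups overlapped. It was well above background on 3 of 4, 2 of 4, 1 of 3 and 4 of 4 arrays of untreated and LPS-treated SCC13-pUNO and untreated and LPS-treated SCC13-TLR4 cells, and so passed the filter through the last group alone. Its log2 fold changes, -0.15 in the control line (SE 0.29) and 0.38 in the TLR4 line (SE 0.31), are therefore given without a test. Here 1 library moved the control value to -0.36 when the replicate 2 array was left out. GGPS1 stays in the counts over 33 genes. Of the 31 genes well above background on all 15 arrays, which leave it out, 0 were called in either LPS comparison. ACAT2 also had opposite signs, -0.23 (SE 0.19) and 0.31 (SE 0.21), and the fold changes of MVK, PMVK, MVD, IDI1 and FDPS lay between -0.11 and 0.19.

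The squalene and sterol ring genes carry squalene, made by FDFT1, through SQLE and LSS to lanosterol and then to cholesterol. Of the 10 tested, 9 were higher with LPS in SCC13-pUNO cells (median 0.13) and 8 in SCC13-TLR4 cells (median 0.05), and 0 were called. SQLE, a rate-limiting oxygenase of the pathway, was at 2.70, 2.08, 2.19 and 2.82 in untreated SCC13-pUNO cells and at 2.74, 2.05, 3.53 and 3.04 with LPS. The SCC13-TLR4 arrays were at 2.53, 2.51 and 2.50 untreated and at 2.84, 2.23, 2.69 and 2.48 with LPS. The LPS-treated SCC13-pUNO arrays held both the lowest and the highest value of SQLE. The log2 fold change was 0.30 (SE 0.24) in the control line, 0.07 on slide 1 and 0.47 on slide 2, and 0.11 (SE 0.25) in the TLR4 line (exact permutation within slides, p = 0.333 and p = 0.944).

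CYP51A1, which removes a methyl group from lanosterol, had a log2 fold change of 0.22 (SE 0.12) in the control line and 0.10 (SE 0.12) in the TLR4 line. FDFT1, LSS, TM7SF2, MSMO1, NSDHL, HSD17B7 and EBP, which cover squalene synthesis and the later changes to the ring, lay between 0.08 and 0.15 in SCC13-pUNO and between -0.07 and 0.08 in SCC13-TLR4 cells. SC5D, a desaturase near the end of the pathway, was well above background on 6 of 15 arrays and lay between -6.30 and -3.11.

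DHCR7, the reductase of the last step, was decided by 1 spot. It was at 6.10, 5.86, 5.75 and 5.44 in untreated SCC13-pUNO cells and at 6.29, 5.74, 5.65 and 5.72 with LPS. In SCC13-TLR4 cells it was at -6.52, 5.69 and 5.43 untreated and at 6.23, 5.98, 5.63 and 5.51 with LPS. The array of untreated SCC13-TLR4 replicate 1, where the spot was dark without being marked as an outlier, had 257 probes at least 4 log2 units below the median of the other arrays, and the other arrays had 12 at most. With that array the fitted LPS effect was 4.64 log2 units (SE 2.03) in SCC13-TLR4 cells, not called. In SCC13-pUNO cells it was -0.44, which made DHCR7 the ring gene counted there as lower. Without that array the effect was 0.06 (SE 0.17) in SCC13-TLR4 and 0.17 (SE 0.13) in SCC13-pUNO cells.

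Among the 5 genes of sterol sensing and SREBP control, 4 were higher with LPS in each line, with medians of 0.09 in SCC13-pUNO and 0.03 in SCC13-TLR4 cells, and 0 were called. INSIG1, which retains SCAP and is itself a target of SREBP, had the highest log2 fold change of the control line. Without the replicate 2 library it did not, at 0.28 against 0.32 for STARD4 and for FASN. INSIG1 was at 3.12, 2.27, 2.46 and 2.57 untreated and at 3.21, 2.28, 3.45 and 2.98 with LPS, so the groups overlapped over most of their range. In the TLR4 line it was at 2.93, 2.44 and 2.61 untreated and at 3.34, 2.47, 2.76 and 2.44 with LPS. The log2 fold change was 0.39 (SE 0.28; 0.13 on slide 1 and 0.65 on slide 2) in the control line and 0.08 (SE 0.30) in the TLR4 line (exact permutation within slides, p = 0.333 and p = 1.00).

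SREBF1, whose product drives mainly the fatty acid genes, was at 5.78, 5.76, 5.84 and 5.90 in untreated SCC13-pUNO cells and at 5.72, 5.87, 6.12 and 5.98 with LPS. The SCC13-TLR4 arrays were at 5.76, 5.63 and 5.72 untreated and at 5.81, 5.71, 5.68 and 5.69 with LPS. It had a narrow range, and its log2 fold changes with LPS were 0.09 (SE 0.08) and 0.03 (SE 0.09), neither past the test. The other SREBF1 probe tested had 0.41 (SE 0.18, limma adjusted p = 0.999887) and 0.12 (SE 0.20), so the probes of this gene differ in the size of the LPS effect. SREBF2, the regulator of the sterol genes, whose promoter holds the sterol response element shown above, was at 3.45, 3.39, 3.36 and 3.01 untreated and at 3.44, 3.42, 3.19 and 3.31 with LPS in SCC13-pUNO cells. In SCC13-TLR4 cells it was at 3.46, 3.16 and 3.07 untreated and at 3.57, 3.60, 3.13 and 3.10 with LPS. The low arrays of SREBF2 were those of slide 2 in each group. Its log2 fold changes were 0.12 (SE 0.07) and 0.06 (SE 0.07), with exact permutation p = 0.133 and p = 0.222 within slides. INSIG2 and SCAP lay between -0.11 and 0.01. The other INSIG2 probe tested had 0.15 (SE 0.22) in SCC13-pUNO and -0.11 (SE 0.23) in SCC13-TLR4 cells, each opposite in sign to the probe used.

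The fatty acid genes start with ACLY, which makes cytosolic acetyl-CoA, and ACACA, which makes malonyl-CoA. Of the 8, 7 were higher with LPS in SCC13-pUNO cells (median 0.08) and 2 in SCC13-TLR4 cells (median -0.01), and 0 were called in each. FASN, the fatty acid synthase, was at 6.49, 6.78, 6.60 and 6.39 untreated and at 6.91, 6.77, 6.81 and 6.53 with LPS in SCC13-pUNO cells. In the TLR4 line it was at 6.76, 6.20 and 6.25 untreated and at 6.85, 6.86, 6.33 and 6.28 with LPS. In the TLR4 line the slide 1 arrays were high and the slide 2 arrays low, with and without LPS. FASN was higher with LPS in 13 of 16 array pairs of the control line, by 0.28 log2 units (SE 0.10), and in 10 of 12 of the TLR4 line, by 0.11 (SE 0.11). The exact permutation test within slides gave p = 0.100 and p = 0.0556 for FASN, and with slide ignored p = 0.171 and p = 0.486.

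SCD, the desaturase that makes oleate, was at 0.45, 0.63, 0.52 and 1.05 in untreated SCC13-pUNO cells and at 0.58, 0.61, 1.13 and 1.17 with LPS. The SCC13-TLR4 arrays were at 0.52, 1.09 and 1.33 untreated and at 0.41, 0.58, 1.19 and 1.26 with LPS. Every slide 2 array of SCD was above every slide 1 array, and with slide in the fit the log2 fold changes were 0.05 (SE 0.08) and -0.01 (SE 0.08). Without the slide factor they were 0.21 and -0.12, since the groups are split unequally over the slides.

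FADS2, a desaturase of polyunsaturated fatty acids, had the lowest fold change of the TLR4 line. It was at 3.45, 3.30, 3.40 and 3.04 untreated and at 3.43, 3.20, 3.59 and 3.25 with LPS in SCC13-pUNO cells, and at 3.50, 3.17 and 3.04 untreated and 3.41, 3.05, 3.08 and 2.92 with LPS in SCC13-TLR4 cells. The groups overlapped in both lines. The log2 fold changes were 0.12 (SE 0.13) and -0.15 (SE 0.13), with exact permutation p = 0.600 and p = 0.222 within slides. ACLY, ACACA, ELOVL6, FADS1 and LPIN1 lay between -0.03 and 0.13 in the control line and between -0.06 and 0.07 in the TLR4 line. The other LPIN1 probe tested lay outside these ranges, at 0.22 (SE 0.31) and 0.43 (SE 0.33).

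STARD4, a carrier that moves cholesterol between membranes, was the only gene of the 33 whose arrays did not overlap between untreated and LPS-treated SCC13-pUNO cells, where 1.27% of probes did not overlap. In SCC13-TLR4 cells 0 of 33 genes separated, against 1.79% of probes. It was at -1.22, -1.09, -1.32 and -1.19 untreated and at -0.87, -1.05, -0.95 and -0.83 with LPS. The nearest untreated array is the library labelled replicate 2. The LPS effect on STARD4 was 0.28 log2 units (SE 0.12), with 0.25 on slide 1, 0.30 on slide 2 and 0.32 (SE 0.13) without that library. Its limma adjusted p was 0.999887, as for HMGCS1 and FASN. The exact permutation test gave p = 0.0333 within slides and p = 0.0286 with slide ignored, the smallest that either allows. Over all 33 genes, 3 had an exact p under 0.05 within slides in SCC13-pUNO cells (HMGCS1, ACACA and STARD4), against 2.03% of the 22597 probes with a value on all 8 arrays. With slide ignored 1 had (STARD4), against 1.25% of probes. In SCC13-TLR4 cells STARD4 was at -0.98, -1.11 and -0.95 untreated and at -0.71, -1.20, -1.22 and -0.89 with LPS, a log2 fold change of 0.01 (SE 0.12).

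NPC1, which exports cholesterol from lysosomes, was at 0.84, 0.93, 0.93 and 0.71 untreated and at 1.05, 1.01, 0.45 and 0.72 with LPS in SCC13-pUNO cells. In SCC13-TLR4 cells it was at 1.03, 0.79 and 0.85 untreated and at 0.97, 0.87, 0.69 and 0.98 with LPS. Its log2 fold changes were 0.01 (SE 0.10) and -0.05 (SE 0.10), and the groups overlapped. The efflux pumps ABCA1 and ABCG1, which are targets of the sterol sensor LXR, were near or under background. The ABCA1 probes were well above background on 0 and on 1 of 15 arrays, and the brighter probe lay between -6.63 and -4.19. ABCG1 was well above background on 8 of 15 arrays, which included all 7 of slide 2, and lay between -6.35 and -2.34.

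**Figure D2:**
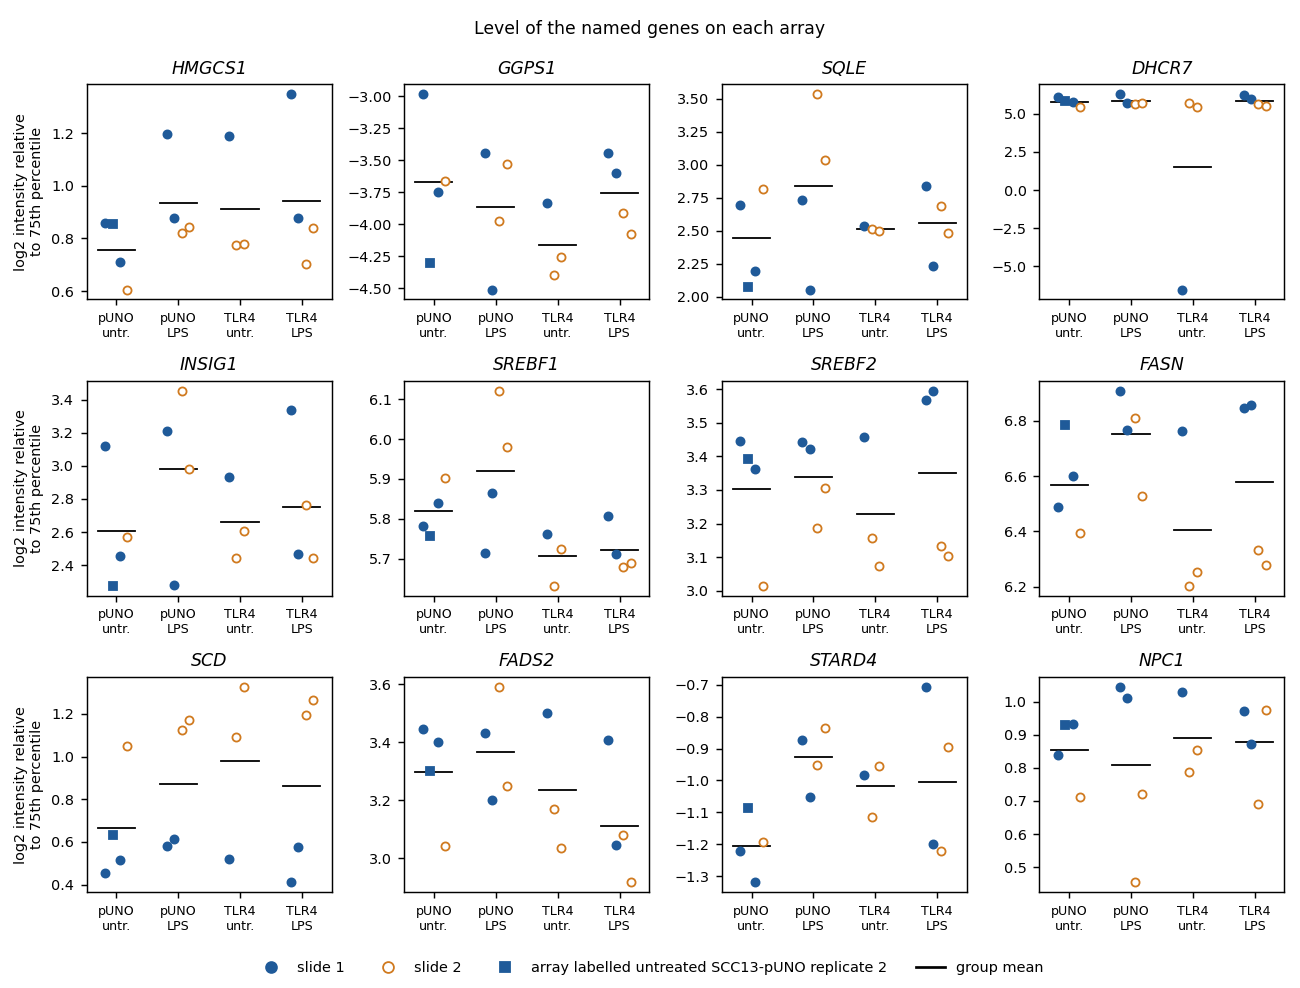
Log2 intensity, less the array's 75th percentile, for 12 genes on each of the 15 arrays, by line and treatment; filled blue points are slide 1, open orange points slide 2, the square is the library whose TLR4 level goes against its label, and bars are group means. STARD4 is the gene whose untreated and LPS-treated SCC13-pUNO arrays do not overlap, SCD separates by slide, and DHCR7 has 1 dark spot at -6.52.

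The lines were also compared with each other. In untreated cells 0 of 33 genes were called against 0% of probes, and with LPS 0 of 33 against 0% (limma). The TLR4 probe was among those tested and was not called either. The lowest adjusted p of any probe was 0.789 untreated and 0.133 with LPS (limma). These counts of 0 therefore do not show that the lines were alike. Without the library labelled replicate 2, which had been counted with the control line, 0 of 33 were called in untreated cells against 0.0485% of probes (11 probes) and 0 of 33 with LPS against 0.097% (22 probes). Untreated SCC13-TLR4 cells had 21 of 33 genes above the control line (57.9% of probes; medians 0.06 and 0.03), and with LPS 15 of 33 (47.7% of probes; medians -0.01 and -0.01). Without the replicate 2 library these counts were 20 (56.7% of probes) and 15 (47.7%), and without the slide factor 13 (45.1%) and 15 (47.7%). Without untreated SCC13-TLR4 replicate 1 the count in untreated cells was 19 (52.5% of probes). The 95% interval lay within 1 log2 unit of 0 for 31 of 33 genes in untreated cells (87% of probes) and for 32 with LPS (89.6%), and within 1.5-fold for 27 (66.6%) and 29 (71.2%). At an unadjusted p under 0.05 there were 2 genes in untreated cells (HMGCS1 and DHCR7; 5.55% of probes) and 1 with LPS (SREBF1; 6.43% of probes), and without the replicate 2 library 0 (5.75% of probes) and 1 (6.44%). Without untreated SCC13-TLR4 replicate 1, the array of the dark DHCR7 spot, 0 genes passed in untreated cells, against 821 of 22668 probes. SREBF1 had a log2 fold change between the lines of -0.20 with LPS (SE 0.08). It was lower in the TLR4 line in 15 of 16 array pairs, and its limma adjusted p was 0.764. Slide 1 alone gave -0.03 and slide 2 gave -0.37, with an exact permutation p of 0.111 within slides. The other SREBF1 probe tested had the opposite sign between the lines, 0.03 (SE 0.18) with LPS and 0.31 (SE 0.20) untreated, where the probe above had -0.14 (SE 0.09). In untreated cells the arrays of ACAT2 and of MSMO1 did not overlap between the lines, as for 3.73% of probes; with LPS 0 of 33 genes kept the lines apart, against 1.29%. ACAT2 was between -3.20 and -3.02 in the TLR4 line and between -2.98 and -2.50 in the control line, a difference of -0.40 log2 units (SE 0.22) at a limma adjusted p of 0.908. MSMO1, which acts on the ring after CYP51A1, was between -1.88 and -1.72 in the TLR4 line and between -2.07 and -1.89 in the control line, a difference of 0.13 log2 units (SE 0.16) at a limma adjusted p of 0.947.

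The response to LPS was compared between the lines as an interaction. It was called for 0 of 33 genes against 0% of probes (limma; unadjusted p under 0.05 for 0 genes and 2.01% of probes). It was lower in the TLR4 line for 27 of 33 genes, that is above 0 for 6 (18.2%) against 38.3% of probes, with a median of -0.08 against -0.04. Without the slide factor 18 of 33 genes were above 0 (53.2% of probes), with a median of 0.03, so this direction depends on slide. Without the replicate 2 library 7 genes were above 0 (39% of probes), and 0 passed an unadjusted p under 0.05 (2.03% of probes). Without untreated SCC13-TLR4 replicate 1, 8 genes were above 0 (45.1% of probes). Over the 31 genes well above background on all 15 arrays, 4 were above 0 (35.4% of probes). The 95% interval of the difference lay within 1 log2 unit for 29 of 33 genes, against 79.1% of probes, and within 1.5-fold for 24, against 55.3%. The interaction was -0.27 (SE 0.16) for HMGCS1, -0.27 (SE 0.17) for STARD4 and -0.30 (SE 0.42) for INSIG1. The untreated SCC13-pUNO arrays enter both the LPS comparison of the control line and this interaction. The counts of the lines were thus not shown to differ.

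Other genes of the pathways were counted in the same way. Of 17 other sterol genes tested, among them the SREBP proteases MBTPS1 and MBTPS2 and the lysosomal NPC2, 9 were higher in SCC13-pUNO and 7 in SCC13-TLR4 cells, with medians of 0.01 and -0.03. Of 19 other genes of fatty acid and glycerolipid synthesis, such as ACSS2 and DGAT1, 10 and 7 were higher, with medians of 0.00 and -0.05. None of them was called in any comparison, with or without the replicate 2 library.

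Differences between the slides were larger than those between lines or treatments. Between slides, 20 of 33 genes were called, 18 lower and 2 higher on slide 2, against 51.8% of probes (34.7% lower and 17.1% higher; limma). The median absolute slide difference of the genes was 0.31, against 0.12 for LPS in SCC13-pUNO, 0.06 for LPS in SCC13-TLR4, 0.11 for the lines untreated and 0.07 for the lines with LPS. CYP51A1 and SCD were higher on slide 2 by 0.64 (SE 0.09) and 0.62 (SE 0.06). PMVK, EBP and MVK, which belong to the mevalonate and ring steps, were lower by 0.49 (SE 0.07), 0.49 (SE 0.09) and 0.47 (SE 0.08). Slide stands for the physical slide in the file headers, and what differed between slides was not tested.

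**Figure D3:**
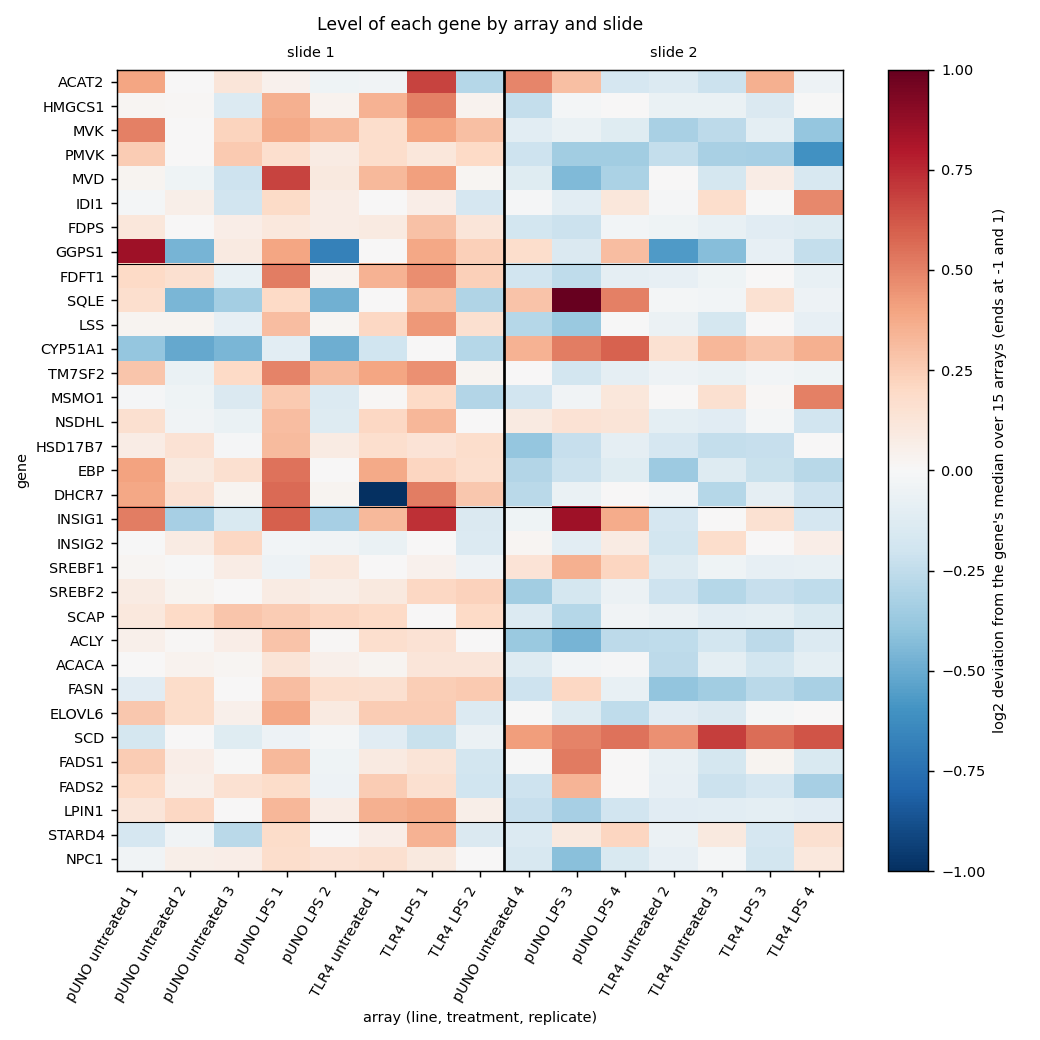
Deviation of each gene from its own median over the 15 arrays, in log2 units, with arrays ordered by slide and then by line and treatment; horizontal lines separate the roles and colours end at -1 and 1. Most genes are redder on slide 1 and bluer on slide 2, with CYP51A1 and SCD the other way, and DHCR7 on untreated SCC13-TLR4 replicate 1 lies beyond the scale.

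Within groups and slides, squalene and sterol ring genes varied together from array to array. Each culture had its own array, so differences between cultures and between hybridisations cannot be told apart. After removing group and slide means, the median pairwise Pearson's r over the 15 arrays was 0.27 for the 496 pairs of 32 genes (DHCR7 left out), with 71.4% of pairs above 0, against 0.01 for all pairs of 22380 probes. It was 0.46 for the 36 pairs of squalene and sterol ring genes, with 94.4% above 0, and 0.32 for the mevalonate genes. It was 0.08 for the fatty acid genes and -0.06 for the genes of SREBP control. From group means alone the median over all pairs was 0.33, against 0.05 for all probes, and the order of the roles changed. It was then 0.52 for the fatty acid genes, 0.38 for the mevalonate genes, 0.24 for the squalene and sterol ring genes and -0.07 for SREBP control. The 15 arrays share 2 slides and 4 groups and the values of an array share its scaling, so these are descriptions without a test.

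The highest single value was between SQLE and INSIG1, with r = 0.97, and NSDHL followed SQLE (0.90), INSIG1 (0.89) and CYP51A1 (0.87). HMGCS1 and STARD4 had r = 0.87, and the neighbouring desaturases FADS1 and FADS2 had 0.88. SCD ran against SQLE (r = -0.68) and ACAT2 (r = -0.70), and SCAP against SQLE (r = -0.69). The array of LPS-treated SCC13-pUNO replicate 3 was the highest of all for SQLE (3.53), INSIG1 (3.45), SREBF1 (6.12) and FADS2 (3.59), while its partner on slide 2, replicate 4, was at 3.04, 2.98, 5.98 and 3.25. Replicate 3 also had the lowest 75th percentile of the series (192 intensity units) and the lowest array weight (0.44). Whether this bears on its high values was not tested.

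**Figure D4:**
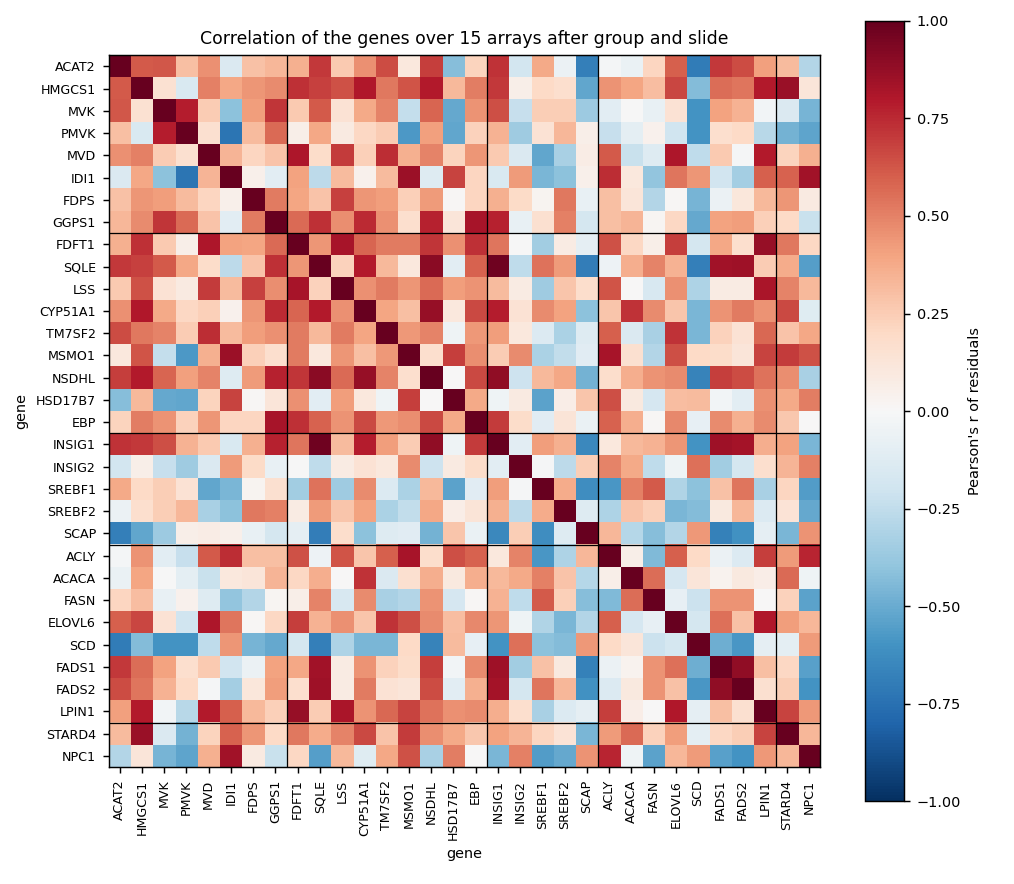
Pearson's r between the residuals of 32 genes over 15 arrays after group and slide means were removed; both axes list the genes by role, and black lines separate the roles. The block of squalene and sterol ring genes is mostly red (median 0.46), and SCD and SCAP have many blue cells.

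Values given above for a gene are those of the probe used, unless another probe is named. For 6 of the genes 7 further probes were tested. Their LPS fold change had the sign of the probe used in 6 of 7 cases in SCC13-pUNO cells and in 3 of 7 in SCC13-TLR4 cells. Between the lines it did so in 4 of 7 cases, untreated and with LPS alike, and for the interaction in 3 of 7.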

How the data were processed

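RNA of 15 cultures was hybridised to Agilent arrays (SurePrint G3 Human 8x60K). The authors deposited spot intensity values made with Feature Extraction 10.7.3.1, background-subtracted and detrended but not normalized between arrays; the deposited value table held the same intensity on 15 of 15 arrays. Groups came from the sample labels. Each log2 intensity was scaled by subtracting the array's own 75th percentile over non-control spots. Outlier-marked spots were dropped and repeated spots averaged. The 22685 probes that the software marked well above background on a whole group (1 group sufficed) were tested. Accessions were named through a RefSeq table (28174 of 50599 probes); a gene was read from its tested probe with the highest mean. limma 3.58.1 in R 4.3.3 fitted 4 group means and slide, with Benjamini-Hochberg adjustment over all tested probes; the paper names no test for the arrays. Full values were given for SREBF1, SREBF2, INSIG1, HMGCS1, SQLE, FASN, SCD and ABCA1, for the gene of each role with the largest absolute fold change in each LPS comparison, and for any gene past the threshold; ACAT2, MSMO1 and the slide and correlation examples were named after their values were seen. Tested genes, and for LPS in SCC13-pUNO all probes, were also compared by two-sided exact permutation of labels within slides (30, 18, 12 and 36 splits; smallest p 0.0333, 0.0556, 0.0833 and 0.0556). The genes and lists were chosen with earlier results of these data known.

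The alternatives were no slide factor, a replicate block, quantile normalization, normexp with an offset of 50 (on the median spot and background intensities, because the mean spot signal is not a column used here), no filter on dim probes, only probes detected on all arrays, spots marked as outliers kept, array weights, only the groups compared, a mean over a gene's probes, and each array left out. Leaving out the replicate 2 library together with the slide factor, or with the array untreated SCC13-TLR4 replicate 1, was added after the data were seen. The fit was tested on simulated data. The number of arrays limits the precision. Further software was Python 3.11.15 with pandas 2.3.3, numpy 2.4.6 and matplotlib 3.10.9.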

Additional observations from a re-analysis of the deposited data

Results flagged for a closer look

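HMGCS1 on the array of LPS-treated SCC13-pUNO replicate 1 was at a log2 intensity of 1.1967, and the other arrays of the group were between 0.819 and 0.877, so this array stood far from the rest. DHCR7 on the same array was at 6.28551, and the others were between 5.65 and 5.74. Of 36 groups of 4 arrays checked in this way, 2 were flagged, where chance gives 1.8.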

How the results depend on the processing

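The number of lipid synthesis genes past the threshold was 0 in every comparison under every alternative run, and of 1202 values of single named genes, 98 had the other sign, 24 moved by over 1 SD and 0 changed their call. The median log2 fold change of the genes kept its sign for LPS in SCC13-pUNO cells (0.04 to 0.16) and ranged from -0.03 to 0.05 for LPS in SCC13-TLR4 cells and from -0.05 to 0.01 for the lines with LPS. Without the slide factor it was -0.0336 for the untreated lines and 0.0344 for the difference in response; with the replicate 2 library left out as well, it was -0.0546 and 0.00628. The groups are split unequally over the slides.

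Counts over all probes, 0 in each comparison, rose as follows. With each array left out in turn they ranged from 0 to 1 (LPS in SCC13-pUNO), 0 to 4 (LPS in SCC13-TLR4), 0 to 11 (lines untreated), 0 to 22 (lines with LPS) and 0 to 2 (difference in response). For the untreated lines the count was 11 without untreated SCC13-pUNO replicate 2, 7 without it and without the slide factor, 5 without it and untreated SCC13-TLR4 replicate 1, and 4 without untreated SCC13-TLR4 replicate 3, which also gave 4 for LPS in SCC13-TLR4 and 2 for the difference. For the lines with LPS it was 22, 10 and 18 under the first 3 of these, 7 with only the 2 groups compared, and 1 with normexp, with no filter, or without LPS-treated SCC13-pUNO replicate 2. The cause was not tested. With slide ignored, the exact test passed 1 gene for LPS in SCC13-pUNO (STARD4) in place of 2 of the 12 named genes, or of 3 of all 33.

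The replicate numbers were not taken as pairs. The correlations of same-numbered deviations lay between -0.335 and 0.256, which with 3 or 4 arrays a group neither shows nor excludes a pairing. With a replicate block, 0 probes and 0 of the genes were called in each comparison, and the median for LPS was 0.08 in SCC13-pUNO and 0.04 in SCC13-TLR4 cells. Faint genes (GGPS1, SC5D, ABCA1, ABCG1) are limited by their signal over background.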
